A study of Mus musculus with 47 samples.

Results

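The genes described here encode the proteins of the mitochondrial ribosome, measured as messenger RNA in the whole retina of young and aged mice. They were chosen by name as protein-coding genes whose symbol starts with Mrpl or Mrps followed by a digit. All 78 such genes (49 Mrpl and 29 Mrps) reached at least 0.5 RPKM (read counts divided by exon length and by the library total) in at least 12 of the 47 libraries. They stand among 15321 genes that passed that level, of 57180 listed. The mice were C57BL/6, an inbred laboratory strain, and were 6 weeks (young) or 20 months (aged) old, with no other allele or agent named in the labels. All were kept in 12 h of light and 12 h of darkness. One retina per mouse was taken at zeitgeber time (ZT, hours after lights on) 2, 6, 10, 14, 18 or 22. Each age and time had 4 mice, except aged ZT18 with 3, which gave 24 young and 23 aged libraries. The p-values measure the spread between these mice.

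Mitochondria carry their own small genome, which encodes core subunits of the respiratory chain and the RNA of a separate ribosome. Every protein of that ribosome is encoded in the nucleus, made in the cytosol and imported, and it joins the 12S rRNA in the small subunit or the 16S rRNA in the large subunit. Photoreceptors hold dense mitochondria in their inner segments, and the retina is known for a high demand for energy that differs between light and darkness. The names do not map exactly onto the subunits. Of the 78 members, 51 belong to the large and 26 to the small subunit, because the products of Mrps30 and Mrps18a sit in the large one. The product of Mrps36 is a component of the 2-oxoglutarate dehydrogenase complex and belongs to neither.

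The members were moderately abundant. Their median level was 9.72 RPKM, against 4.34 for all genes tested, and 13 members lay above 20 RPKM and 19 below 5. The highest were the large-subunit genes Mrpl49 at a median of 67.5 RPKM over the 47 libraries, Mrpl34 at 56.0 and Mrpl41 at 39.9. The lowest were Mrpl33 at 1.17, Mrps35 at 2.13 and Mrps30 at 2.17. Between 56031 and 183456 reads per library fell on the members together, out of 32.0 to 55.5 M reads, and the smallest count of any member in any library was 120 reads. Mrpl23, Mrpl48 and Mrps36 have processed pseudogenes with reads of their own (Mrpl23-ps1 at a median of 1.70 RPKM, Mrpl48-ps at 1.21 and Mrps36-ps1 at 0.271), so their values are uncertain. Exons of another gene overlap 33 members, 28 of them on the opposite strand, and no source used here states whether counting used strand. A single other gene covers at least 20% of exon bases in 9 members, among them Mrpl53 (88.0%), Mrps25 (69.8%) and Mrps34 (63.4%), and overlaps with 2 genes sum to 30.3% in Mrps6 and 24.2% in Mrpl47. The values of these members are uncertain for that reason.

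The 150 bases upstream of the start of the 4 members on which the results below turn are printed from the RefSeq promoter table (build GRCm38.p6) to show which motifs each holds. Capitals mark matches, on either strand, to 3 of the motifs searched: GCGCATGC (the core of the NRF1 site), CCGGAAG (the ETS or GABPA site) and CCAATC (the CCAAT box). NRF1 and GABPA are known as activators of nuclear genes for mitochondrial proteins. The windows are Mrpl32 at chr13:14613038-14613187 on the minus strand, Mrpl3 at chr9:105053118-105053267 on the plus strand, Mrps9 at chr1:42851083-42851232 on the plus strand and Mrpl1 at chr5:96209965-96210114 on the plus strand.
Mrpl32: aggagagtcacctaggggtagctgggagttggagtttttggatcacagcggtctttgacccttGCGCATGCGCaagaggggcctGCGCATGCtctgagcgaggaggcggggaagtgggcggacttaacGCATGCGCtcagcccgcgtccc
Mrpl3: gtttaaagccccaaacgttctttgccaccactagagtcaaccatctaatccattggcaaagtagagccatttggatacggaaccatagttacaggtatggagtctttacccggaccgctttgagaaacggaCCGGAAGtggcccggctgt
Mrps9: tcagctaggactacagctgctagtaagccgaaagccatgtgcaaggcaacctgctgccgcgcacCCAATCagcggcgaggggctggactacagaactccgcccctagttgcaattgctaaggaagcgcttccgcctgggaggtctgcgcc
Mrpl1: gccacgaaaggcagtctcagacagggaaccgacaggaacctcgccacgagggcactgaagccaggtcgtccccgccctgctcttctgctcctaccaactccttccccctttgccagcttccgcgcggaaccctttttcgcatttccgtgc

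Mrpl32 held 4 matches to the NRF1 core counted on both strands, of which a pair overlap in the first capital run, Mrpl3 held 1 ETS match, Mrps9 held 1 CCAAT box, and Mrpl1 held none of the motifs in these bases. RefSeq windows of 250 bases before to 50 bases after the start were found for 69 of the 78 members, as 75 windows. The ETS motif was in 26 of the 75 windows (34.7%), against 16.6% of 13215 windows of genes tested. The YY1 motif AAGATGGCG was in 8 (10.7%, against 2.86%), and the NRF1 core in 8 (10.7%, against 4.96%). The CCAAT box was in 15 (20.0%, against 20.0%) and the E-box CACGTG in 7 (9.33%, against 9.63%). The median GC content was 58.7% in the members' windows and 61.0% in those of all genes tested. A match describes letters in the window and was not tested as a binding site.

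In 2 libraries the members stood far from those of the other mice in the group. In young ZT10 replicate 4 the members' median was 0.64 higher on the log2 scale than the mean of the other 3 libraries, a 1.56-fold difference. In this library 65 of the 78 members were above all 3 others and 10 were below them, while of all genes tested 31.0% were above and 60.1% below. Its summed member level was 1840 RPKM, against 960 to 977 RPKM in the other 3. In the same library 79 of 81 cytosolic ribosomal protein genes were above all 3 others, with a median of 1.31. For nuclear genes of complex I of the respiratory chain it was 32 of 36, with a median of 0.96. The median of 9 rod markers was 0.64, with 6 above all 3 others and 3 below. Mrpl34, a small protein of the large subunit, was 1.75 higher on the log2 scale there, whereas Mrps31, a protein of the small subunit, was at 2.24 RPKM against 5.55 to 6.06 RPKM. In the same library all 8 bipolar cell markers (median log2 difference -2.59) and all 8 Müller glia markers (-3.22) were below the other 3 libraries, and lens markers (2.51) and blood markers (2.37) were higher. In aged ZT6 replicate 3 the members' median was -0.74 on the log2 scale, a 0.60-fold level. The sum was 555 RPKM, against 961 to 1130 RPKM in the others. There 63 of the 78 were below all 3 others and 7 above, while of all genes tested 53.7% were below and 29.5% above. In the same library 47 of 81 cytosolic ribosomal protein genes and 29 of 36 complex I genes were below all 3 others. Mrps12, which lies at the decoding site of the small subunit, stood at 2.81 RPKM there, against 18.9 to 19.9 RPKM in the other 3. Spearman's rho of a member's deviation with its exon length was -0.44 over the 78 members in the young library and 0.55 in the aged one. Over 14864 genes it was -0.34 and 0.34. The labels give no reason to leave either library out, so the results below come first from all 47 libraries and then from the 45 without these.

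Outside the 2 libraries, the members' mean level differed modestly between times. On the log2(RPKM + 0.5) scale, the mean over the 78 members in the 45 libraries was 3.37 ± 0.06 (SD, n = 4) at young ZT6, the highest young group, and 3.14 ± 0.14 (SD, n = 4) at young ZT22, the lowest. In aged retinas it was 3.38 ± 0.11 (SD, n = 3) at ZT6 and 3.22 ± 0.07 (SD, n = 4) at ZT22. Aged ZT14 (3.35 ± 0.05, SD, n = 4) lay wholly above young ZT14 (3.22 ± 0.04, SD, n = 4), with 3.32 to 3.43 against 3.16 to 3.25. At each other time the libraries of the 2 ages overlapped. In these bulk samples, fewer cells of a type and less RNA per cell cannot be told apart.

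**Figure D1:**
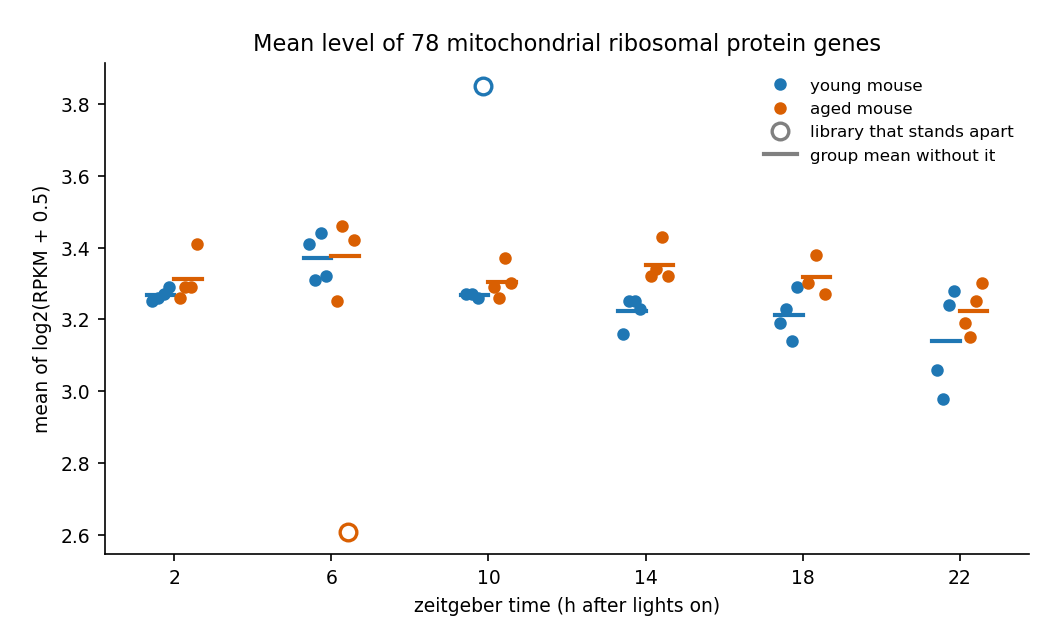
Mean log2(RPKM + 0.5) of the 78 members (y axis) in each of the 47 libraries by zeitgeber time in h (x axis), young and aged, with 1 point per mouse, the 2 libraries that stand apart as rings and bars at group means without them. Young ZT10 replicate 4 lies at 3.85 against 3.26 to 3.27 for the others of its group, and the aged groups otherwise lie between 3.15 and 3.46.

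With age, 1 member changed when all 47 libraries were used. Mrpl1 encodes a protein of the mobile stalk of the large subunit beside the exit site of tRNA. It was at 1.84, 2.32 and 3.20 RPKM (lowest, median and highest of 24) in young and at 2.24, 2.72 and 4.41 RPKM (of 23) in aged retinas. The ages overlapped over the day, although the aged mean was the higher at 6 of 6 times. With the 45 libraries it was the higher at 5, and at ZT10 the direction turned. At ZT6 the 4 aged libraries held 3.06, 3.27, 4.41 and 3.19 RPKM and the 4 young ones 2.40, 2.94, 2.51 and 2.71 RPKM, with no overlap. The difference was 0.21 ± 0.045 (SE) on the log2 scale, 1.15-fold, with an adjusted p of 0.00246 (limma, Benjamini-Hochberg over 15321 genes). None of the members was called lower. Of all genes tested, 4.24% were called in either direction, 2.41% higher and 1.83% lower in aged, so 1 of 78 is a share below the background. With the fold over 1.5 that the study asked for as well, 0 members were called, against 0.490% of genes. At an unadjusted p under 0.05 there were 2, against 15.7% of genes. The median difference of the members was 0.0069, against -0.0186 for all genes, and 47 of the 78 were positive. Next in order were Mrps18b (0.11 ± 0.047, SE, adjusted p = 0.200) and Mrpl45, whose product anchors the ribosome at the inner membrane (0.07 ± 0.034, SE, adjusted p = 0.322), both past the threshold in neither direction.

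The count depended on the 2 libraries. Both were set apart by the members' own levels, high in the young library and low in the aged one. Leaving them out therefore raises the members' aged minus young difference by construction, and every count without them shares this selection. Without the 2 libraries, 20 of the 78 members (25.6%) were higher in aged retinas and 0 were lower, where 7.24% of all genes were higher and 9.29% lower. The 20 included Mrpl1 (0.17 ± 0.038, SE, adjusted p = 0.00169), 15 of the 51 members of the large subunit and 5 of the 26 of the small subunit. Their changes were small, at 1.06-fold to 1.15-fold. The median over the 78 was 0.07 on the log2 scale, against -0.03 for all genes, with 67 of the 78 positive. Among genes within the members' range of median levels, 7.68% of 11488 were higher. With young ZT10 replicate 4 alone left out the count was 5, where 9.91% of all genes were called in either direction. With aged ZT6 replicate 3 alone left out it was 3, against 5.52% of genes. Leaving out 1 further library in turn gave 16 to 24, with 0 lower each time. With scaling by median ratio as well it was 21, which contained all 20, against 8.33% of genes higher and 7.77% lower. With the 45 libraries, 20 of 81 cytosolic ribosomal protein genes and 16 of 36 nuclear genes for complex I of the respiratory chain were higher too, and with all 47 libraries 0 of either list.

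Mrpl49, a protein found in the large mitochondrial subunit, had the smallest p in the 45 libraries. It stood at 53.1, 64.6 and 74.2 RPKM (lowest, median and highest of 23) in young and at 63.2, 72.3 and 96.0 RPKM (of 22) in aged retinas. Values overlapped, although the aged mean was above the young one at 6 of 6 times. The difference was 0.19 ± 0.036 (SE) on the log2 scale, with an adjusted p of 0.000153 (limma).

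Mrps16 encodes a small-subunit protein. Over the 45 libraries it held 4.70, 5.72 and 7.10 RPKM in young and 5.56, 6.52 and 8.17 RPKM in aged retinas. All 3 aged libraries at ZT18 (7.06, 7.18 and 7.44 RPKM) were above the 4 young ones (5.50, 5.57, 5.17 and 5.89 RPKM). Over the day it was 0.20 ± 0.038 (SE) higher in aged, with an adjusted p of 0.000263 (limma). With all 47 libraries the difference was 0.12 ± 0.064 (SE) and did not pass.

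Mrps7, a protein of the head of the small subunit, was at 14.9, 17.1 and 19.8 RPKM in young and at 17.2, 18.6 and 22.4 RPKM in aged retinas over the 45 libraries. The overlap was large, and the difference of 0.14 ± 0.031 (SE, adjusted p = 0.00153, limma) was 1.10-fold. Mrpl22, a protein lining the polypeptide exit tunnel, was at 7.34, 9.61 and 11.6 RPKM in young and at 8.14, 10.9 and 13.1 RPKM in aged (0.19 ± 0.049, SE, adjusted p = 0.00519, limma). Of the 20 members, 12 had a higher aged mean at 6 times and 8 at 5 times, which their selection here largely fixes. The others were Mrps10, Mrpl40, Mrpl46, Mrpl48, Mrpl43, Mrpl9, Mrpl58, Mrps21, Mrpl23, Mrpl51, Mrpl15, Mrps18a, Mrpl27, Mrpl45 and Mrps34, with adjusted p-values between 0.00620 and 0.0411.

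Markers of other cells moved with age in the same 45 libraries. Blood genes were higher in aged retinas for 4 of 5, with a median log2 difference of 1.10, and their summed level ran from 14.1 to 294 RPKM in young and from 12.2 to 823 RPKM in aged libraries over all 47. Genes of the retinal pigment epithelium (RPE), the cell layer behind the photoreceptors, were higher for 3 of 8, with sums of 7.05 to 103 RPKM in young and 9.72 to 193 RPKM in aged. Microglial genes were higher for 5 of 8, with a median of 0.283, and bipolar cell genes were lower for 5 of 8, with a median of -0.238. Lens genes were lower for 3 of 13, with a median of -0.132 and sums of 1.17 to 2900 RPKM in young and 3.02 to 2070 RPKM in aged over all 47. Müller glia genes were lower for 1 of 8, with a median of -0.0752. Amacrine and ganglion cell genes changed for 0 of 7 and 0 of 8, with medians of -0.177 and -0.145. Cone and endothelial genes changed for 0 of 7 and 0 of 5, with medians of -0.0639 and -0.0822. Rod genes, which mark the main cell type of the retina, changed for 0 of 9, with a median of 0.0396 and all 9 positive. Best1 and Mlana of the RPE were listed at 0 in 2 and 8 libraries. The part of these cells in the members' difference was not tested.

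**Figure D2:**
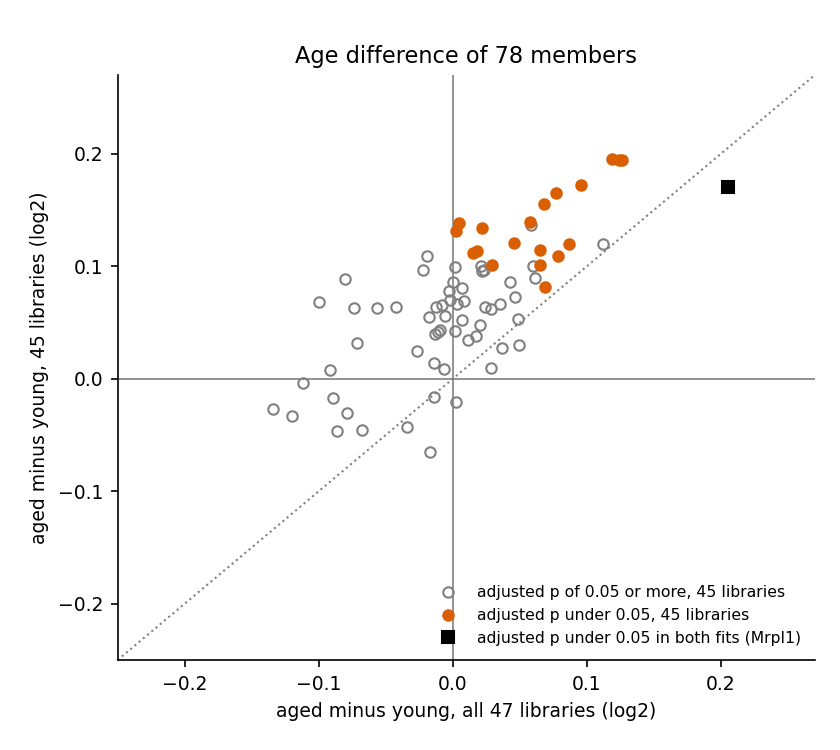
Log2 difference of aged minus young for each of the 78 members with all 47 libraries (x axis, log2) and with the 45 libraries (y axis, log2), with members called in the 45 filled and the dotted line marking equal values. The 20 filled members all have positive differences, and 1 of them, Mrpl1 (square), is also called with all 47.

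At single times, 0 members passed with all 47 libraries at any of the 6 times (limma, from 12 group means). In order from ZT2 to ZT22, the background was 0.144%, 3.12%, 0.496%, 0.248%, 0.255% and 0.170% of genes. In the same order, 3, 16, 4, 7, 5 and 0 members had an unadjusted p under 0.05, and the members' medians were 0.06, -0.17, -0.11, 0.14, 0.11 and 0.09 on the log2 scale. Left-out libraries moved the count at ZT6. It was 10 (9 lower and 1 higher in aged) without aged ZT6 replicate 4, where 9.69% of genes passed, and 7, all lower, without aged ZT6 replicate 2 (8.70% of genes). Without young ZT10 replicate 4 it was 2 (6.43%), and without aged ZT6 replicate 1 it was 1 (5.05%). Both negative medians belong to the times of the 2 libraries, and they were -0.01 and 0.02 without them. At ZT14, 73 of the 78 members were higher in the aged mean, and at ZT18 71 were. Without the 2 libraries, 1 member passed at ZT18, where 0.822% of genes did. That was Mrps16, 0.36 ± 0.089 (SE) higher in aged, with an adjusted p of 0.0428 (limma). The interaction of age and time passed for 0 members and 0 genes with all 47 libraries, and 3 members were under an unadjusted 0.05, against 4.80% of genes.

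Over the day, a rhythm of 24 h was called in young retinas for 27 of the 78 members (34.6%), where 19.7% of all genes were called (limma, F test of cosine and sine terms). The fitted peaks of the 27 lay in the light, between ZT5.5 and ZT9.6, and peak-to-trough folds ran from 1.15 to 1.48. Among the 27 were 15 of the 51 members of the large and 12 of the 26 of the small subunit. Over all 78, called or not, 63 fitted peaks lay between ZT4 and ZT10, as did 6722 of all 15321 genes. Of the 3024 genes called in young, 2308 peaked in the light. With median-ratio scaling 48 of the members peaked between ZT4 and ZT10, against 4742 of all genes. With scaling and the 45 libraries it was 35, against 5488.

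Mrpl32 had the smallest p in young retinas. Its product is cleaved after import by a protease of the inner membrane before it joins the large subunit. At ZT6 the 4 young libraries held 4.32, 4.55, 4.89 and 4.85 RPKM, and at ZT22 they held 3.16, 2.57, 3.11 and 3.33 RPKM. The times did not overlap. The amplitude, from mean to peak, was 0.24 ± 0.036 (SE) on the log2 scale, with a peak at ZT8.4 ± 0.58 h (SE) and an adjusted p of 0.000181 (limma). In aged retinas the ZT6 libraries held 3.60, 4.30, 4.83 and 4.42 RPKM and those at ZT14 4.66, 4.14, 4.22 and 4.16 RPKM. The aged mean was 4.29 RPKM at ZT6, 3.51 RPKM at ZT22 and 3.54 RPKM at ZT2, so ZT22 was the lower in aged as well. No rhythm passed in aged (adjusted p = 0.144, limma).

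Mrpl3 encodes a core protein near the catalytic centre of the large subunit. It held 5.63, 5.80, 6.11 and 6.19 RPKM at young ZT6, against 4.89, 4.20, 4.30 and 4.20 RPKM at young ZT22. Young ZT10 replicate 4 was at 4.44 RPKM and its 3 neighbours at 5.64 to 5.99 RPKM. The amplitude was 0.20 ± 0.037 (SE), the peak was at ZT7.4 and the adjusted p was 0.00145. In aged retinas it held 6.59, 6.34, 6.10 and 5.78 RPKM at ZT10 and 4.23, 4.58, 3.96 and 4.24 RPKM at ZT22. The 2 aged times did not overlap, and the amplitude was 0.27 ± 0.035 (SE), with a peak at ZT8.3 and an adjusted p of 4.4e-05 (limma). This was the smallest adjusted p of any member at either age.

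Mrps9 encodes a small-subunit protein. It was at 3.67, 3.54, 3.69 and 3.23 RPKM at young ZT6 and at 2.31, 2.63, 2.55 and 2.77 RPKM at young ZT18, with no overlap. In aged retinas it was at 3.69, 3.54, 3.35 and 3.19 RPKM at ZT10 and at 2.82, 2.55, 2.60 and 2.54 RPKM at ZT22, again with no overlap. The amplitude was 0.19 ± 0.036 (SE) in young, with a peak at ZT8.1 (adjusted p = 0.00171, limma), and 0.17 ± 0.037 (SE) in aged, with a peak at ZT9.9 (adjusted p = 0.00900, limma).

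**Figure D3:**
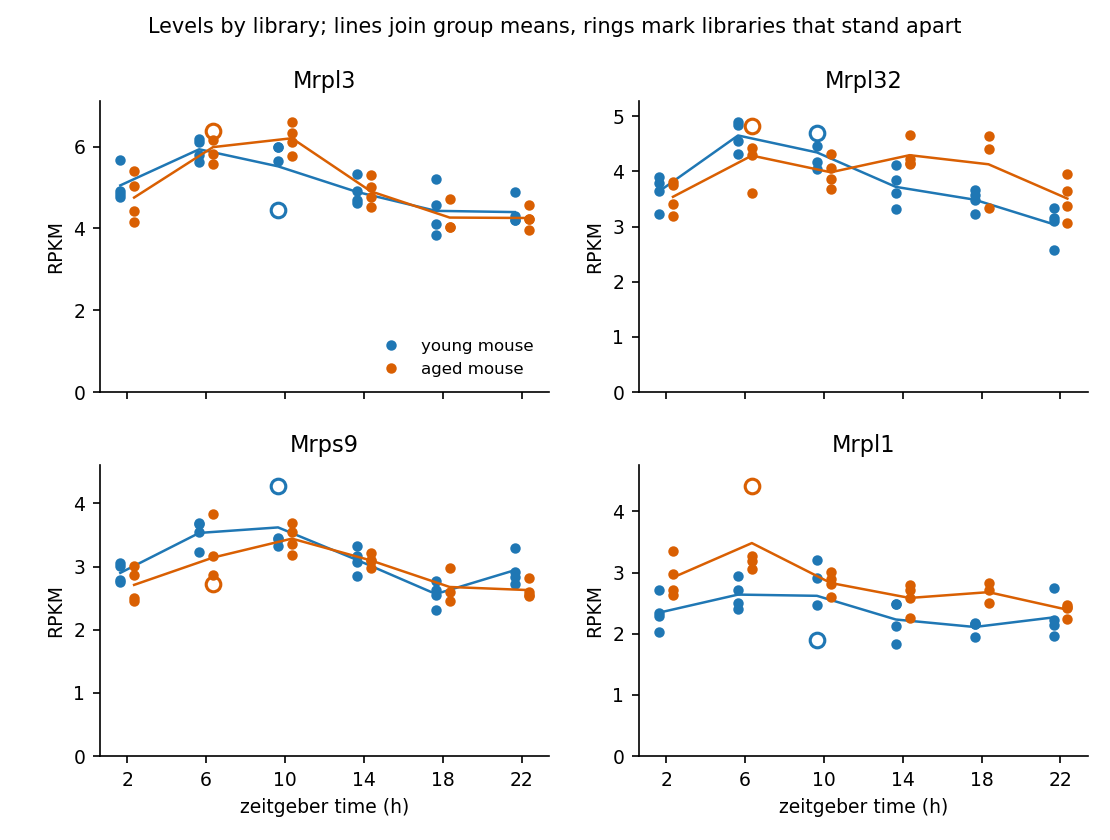
RPKM (y axis) of Mrpl3, Mrpl32, Mrps9 and Mrpl1 in each library by zeitgeber time in h (x axis), with young and aged points, lines through the means of each group and rings on the 2 libraries that stand apart. Mrpl3 and Mrps9 are high at ZT6 or ZT10 and low at ZT18 and ZT22 at both ages, and Mrpl1 has the higher aged mean at each time, except at ZT10 when the ringed young library is left out.

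Mrps18c, a small-subunit protein and 1 of 3 paralogs, had the largest amplitude among the members with the smallest p in young, at 0.28 ± 0.055 (SE), with a peak at ZT9.2 (adjusted p = 0.00231, limma). It held 6.17, 5.66, 6.14 and 8.97 RPKM at young ZT10 and 3.55, 3.62, 3.82 and 5.17 RPKM at young ZT22, and the groups did not overlap. The highest of the ZT10 values came from replicate 4. Exons of another gene overlap 23.2% of Mrps18c on the same strand.
The mitochondria-specific proteins of the large subunit Mrpl37, Mrpl38 and Mrpl39 peaked in young retinas at ZT9.5, ZT8.4 and ZT8.0, with amplitudes of 0.18 ± 0.036, 0.14 ± 0.029 and 0.15 ± 0.033 (SE) and adjusted p-values of 0.00275, 0.00340 and 0.00610 (limma). Mrps30 peaked at ZT6.2 with an amplitude of 0.17 ± 0.040 (SE, adjusted p = 0.00827). In 15 of the 27 members the call held whichever library was left out, among them Mrps14, Mrps2, Mrps15, Mrps11, Mrpl13, Mrpl11 and Mrps10. Leaving out young ZT18 replicate 3 lowered the count from 27 to 17.

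In aged retinas a rhythm was called for 6 of the 78 members (7.69%), a share below the 14.4% of all genes. They were Mrpl3, Mrps9, Mrps31, Mrps10, Mrps6 and Mrpl1. Mrps31 was at 5.40, 5.89, 5.38 and 6.24 RPKM at aged ZT6 and at 3.84, 4.58, 3.98 and 4.18 RPKM at aged ZT22, without overlap, with a peak at ZT8.5 and an adjusted p of 0.000470 (limma). It was not called in young retinas (adjusted p = 0.569), where replicate 4 of ZT10 was at 2.24 RPKM.
Mrps10, a small-subunit protein, was at 4.09, 4.37, 3.49 and 4.16 RPKM at aged ZT6 and at 2.88, 3.10, 3.19 and 3.47 RPKM at aged ZT22, with no overlap but with 3.49 close to 3.47. It peaked at ZT6.1 (adjusted p = 0.0228). Mrps6 was the member whose peak was in the dark, at ZT15.9 (adjusted p = 0.0290). It held 7.58, 6.41, 7.87 and 6.58 RPKM at aged ZT14 and 4.22, 4.51, 5.59 and 4.40 RPKM at aged ZT2, and its overlap of 30.3% with 2 genes on the same strand makes these values uncertain. Mrpl1 peaked at ZT6.3 (adjusted p = 0.0339). For Mrpl3, Mrps31, Mrps9 and Mrps10 the call held in each fit that left out 1 library.

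Without the 2 libraries, rhythms were called for 37 members in young (47.4%, background 34.0%) and for 24 in aged (30.8%, background 27.3%). Both counts contain the calls made with all 47. The number called at both ages was 3 (Mrpl3, Mrps9 and Mrps10) with 47 libraries, against 7.56% of genes, and 16 with 45, against 19.4% of genes. The median difference in peak time over those 16 was 1.38 h.

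The young rhythm also depended on how libraries were scaled. The median-ratio factor, a measure of how far all genes together moved, was 0.10 on the log2 scale at young ZT6 and 0.09 at young ZT10 in the 45 libraries, against -0.07 at young ZT18. With each library divided by its factor, 4 of the 78 members were called in young with all 47 libraries (5.13%, background 16.3%): Mrpl32, Mrpl3, Mrps18c and Mrpl37. With the 45 libraries it was 14 (17.9%, background 27.6%), of which 10 were also called as deposited. Of the 14, 10 peaked in the light, against 1875 of the 4233 genes called. In aged retinas the count after scaling was 6 with all 47 libraries (background 12.4%) and 9 with the 45 (background 20.6%). At both ages, 5 passed with scaling and 45 libraries (Mrpl3, Mrpl34, Mrpl51, Mrps10 and Mrps9), against 14.7% of genes. Beside this, 5 of 8 RPE genes were rhythmic in young with peaks at ZT18.4 to ZT18.9, and their sum ran from 28.2 to 103 RPKM at young ZT18, against 13.9 to 21.8 RPKM at young ZT10. With the RPE and lens levels as covariates, 9 members were called in young (background 12.4%) and 2 in aged (background 1.98%). Since 5 of 8 RPE genes were rhythmic at each age, that covariate overlaps with the time terms of the fit. What lowered these counts was not tested.

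**Figure D4:**
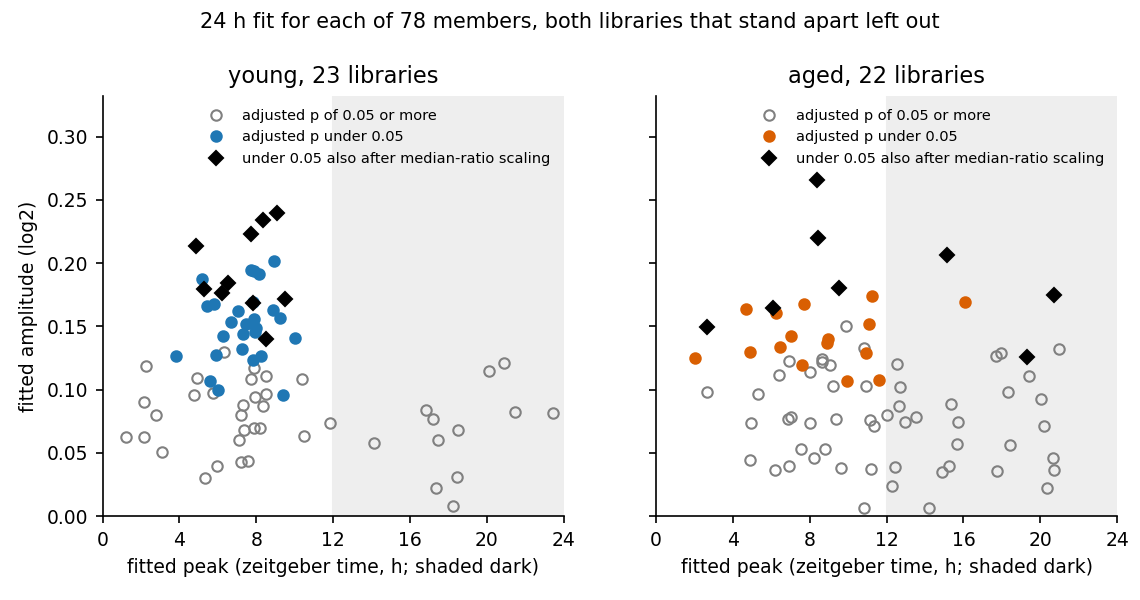
Fitted peak time in h (x axis) and amplitude on the log2 scale (y axis) of the 78 members in young and aged retinas, from the 45 libraries, with members called filled, those called also after scaling drawn as diamonds and the dark hours shaded. The 37 called in young peak between ZT3.8 and ZT10.0, while called peaks in aged are spread from ZT2.0 to ZT20.7.

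A rhythm called at 1 age does not show a difference between ages, and the test of that difference was passed by 0 members, against 0.00653% of genes (1 gene). At an unadjusted p under 0.05 there were 8 of the 78, where the background was 7.75%. The smallest unadjusted values from limma belonged to Mrpl32 at 0.00757, Mrps16 at 0.0121 and Mrpl10, a protein at the base of the large-subunit stalk, at 0.0199. After adjustment each stood at 0.606. Without the 2 libraries, 0 passed and 6 were under 0.05 unadjusted (background 7.86%).

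**Figure D5:**
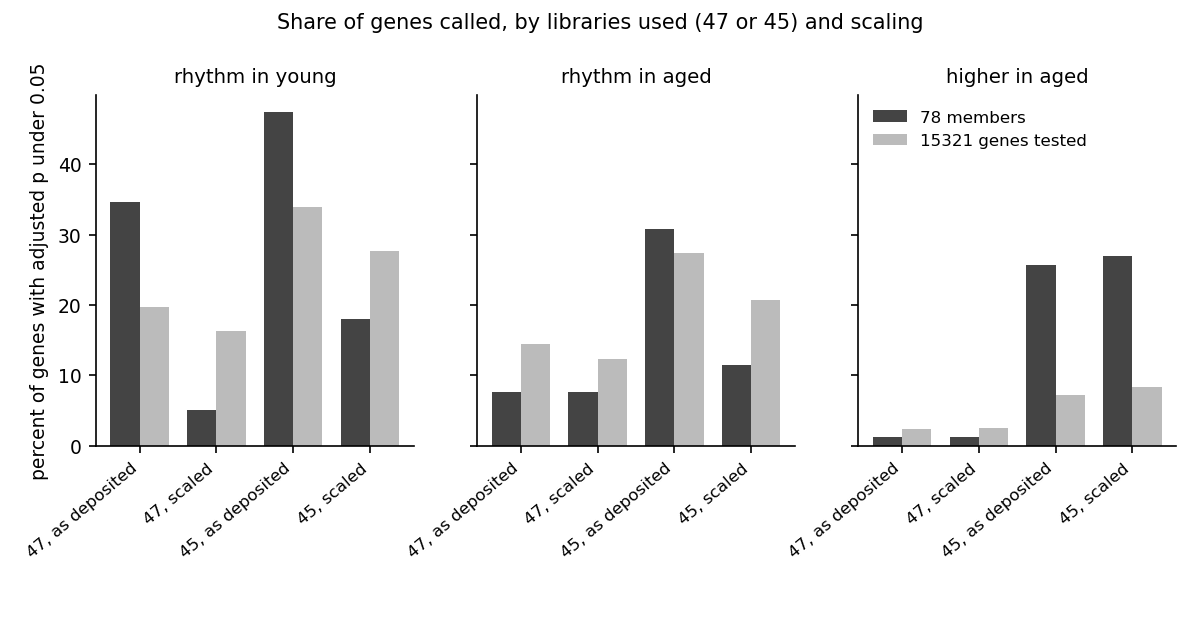
Share of the members (dark bars) and of all 15321 genes (light bars) called, in percent (y axis), for the rhythm in young, the rhythm in aged and higher levels in aged, with 47 or 45 libraries as deposited or scaled by median ratio (x axis). The members lie above all genes for the young rhythm as deposited (34.6% against 19.7%) and below them after scaling (5.13% against 16.3%).

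The genes that build and read the mitochondrial ribosome were taken from lists of the pathway. Of 26 tested assembly factors and rRNA-modifying enzymes, 14 were rhythmic in young and 3 in aged with all 47 libraries (background 19.7% and 14.4%), with young peaks from ZT5.2 to ZT9.0. Malsu1, which binds the large subunit late in assembly, peaked at ZT7.2 with a peak-to-trough fold of 1.48 (adjusted p = 0.000742, limma), and Mettl17, a factor of small-subunit assembly, peaked at ZT8.3 (1.46-fold, adjusted p = 0.000981). The GTPase Gtpbp10 was called at both ages, with 1.51-fold (adjusted p = 0.000908) in young and 1.58-fold (adjusted p = 0.000474) in aged, as were Trub2, a pseudouridine synthase (adjusted p = 0.00152 and 0.00110), and Mtg1 (adjusted p = 0.00116 and 0.00268). The fourth smallest p in young was that of the rRNA methyltransferase Mrm3 (adjusted p = 0.00103). After scaling, 8 of the 26 were called in young and 3 in aged (background 16.3% and 12.4%). With the 45 libraries it was 15 and 12 (background 34.0% and 27.3%), and 11 and 5 after scaling as well (background 27.6% and 20.6%). Age changed 0 of the 26 with 47 libraries and 1, Mrm2, with 45 (background 4.24% and 16.5% in either direction).

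Of 20 genes for maintenance and expression of mitochondrial DNA, 11 were rhythmic in young and 4 in aged, against the same backgrounds. After scaling it was 5 and 1, with the 45 libraries 15 and 7, and with both 9 and 2. Age changed 0 of the 20 with 47 libraries (background 4.24%). With 45 libraries 2 were lower, a share near the 9.29% of all genes that were lower. Ssbp1, the single-strand DNA-binding protein, peaked at ZT8.8 (adjusted p = 0.00107), the helicase Supv3l1 at ZT5.6 (0.00205), the tRNA-processing nuclease Elac2 at ZT6.3 (0.00258) and the RNA polymerase Polrmt at ZT10.2 (0.00386). In aged retinas Trmt10c, a subunit of mitochondrial RNase P (adjusted p = 0.00284), Elac2, Supv3l1 and the transcription factor Tfam (adjusted p = 0.0394) passed. Of 10 translation factors, Guf1 (adjusted p = 0.00431) and Gfm2, which recycles ribosomes (0.00945), passed in young and none did in aged, which in young is near the background. It was 1 in young after scaling, and 4 and 2 with the 45 libraries. Of 9 nuclear regulators, the coactivator gene Ppargc1b (0.00627) and Yy1 (0.0221) passed in young, and Pprc1 (0.0122) and Tfeb (0.0175) in aged. That is 22.2% at each age, against 19.7% and 14.4% of all genes. Of these regulators, 1 peaked in the light in young and 0 in aged. With the 45 libraries 5 regulators passed in young and 4 in aged (background 34.0% and 27.3%). Among 4 small-subunit proteins with other names, Chchd1 (0.00791) and Ptcd3 (0.0447) passed in young, and 1 of the 4 did after scaling. These adjusted p-values are from limma.

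The rRNAs that the members bind are encoded in the mitochondrion. With all 47 libraries, 1 of 15 mitochondrially encoded genes changed with age, against 4.24% of all genes in either direction. With the 45 libraries it was 2 of 15, against 16.5%. The small-subunit rRNA gene mt-Rnr1 was at 186, 272 and 397 RPKM (lowest, median and highest of 24) in young and at 254, 331 and 915 RPKM (of 23) in aged retinas. The difference was 0.32 ± 0.078 (SE), with an adjusted p of 0.00754 (limma), and 0.25 ± 0.058 (SE, adjusted p = 0.00200) without the 2 libraries. The large-subunit rRNA gene mt-Rnr2 was 0.35 ± 0.12 (SE) with an adjusted p of 0.0902, and 0.21 ± 0.058 (SE, adjusted p = 0.0110) in the 45 libraries. The highest aged mt-Rnr1 value was 915 RPKM with all 47 libraries and 461 RPKM with the 45. For mt-Rnr2 it was 6970 RPKM with all 47 libraries and 1600 RPKM with the 45. These libraries were selected for poly(A) RNA, so rRNA levels in them depend on that selection.

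Some members have special roles. Mrpl12, a stalk protein that also binds the mitochondrial RNA polymerase, was at 18.6 to 36.0 RPKM in young and 12.2 to 31.7 RPKM in aged retinas, with medians of 25.7 and 26.3 RPKM, and passed no test with all 47 libraries. Mrps12 was at 15.5 to 43.0 RPKM in young and 2.81 to 26.5 RPKM in aged, and its extremes are from the 2 libraries. Mrpl11, at the base of the stalk, passed for a young rhythm with a peak at ZT8.4 (adjusted p = 0.0127, limma) and not for an aged one (0.794). Of the paralogs, Mrps18a of the large subunit was at a median of 6.39 RPKM in young and 7.01 RPKM in aged, Mrps18b at 2.25 and 2.52 RPKM, and Mrps18c at 5.36 and 5.47 RPKM. Mrps18b passed for a young rhythm (adjusted p = 0.0476, peak ZT6.0) and Mrps18a did not (0.129), while exons of other genes overlap 30.5% of Mrps18b. Mrpl58, the peptidyl-tRNA hydrolase that rescues stalled ribosomes, was at a median of 9.48 RPKM in young and 9.86 RPKM in aged, and passed for age in the 45 libraries (0.12 ± 0.037, SE, adjusted p = 0.0210). Mrps36 passed no test with all 47 libraries (14.1 and 14.5 RPKM). The members with the largest mean amplitudes were Mrpl54, Mrpl3, Mrps12 and Mrps18c. For Mrpl54 and Mrps12 the rhythm was not called at either age, and Mrpl54 was at 129 RPKM in young ZT10 replicate 4, against 36.0 to 40.9 RPKM in the other 3.

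Most members varied together between mice of 1 group. The correlation (Pearson) of each member's deviation from its group mean with the mean deviation of the other members had a median of 0.76 over the 47 libraries, and exceeded 0.5 for 62 of the 78. For all genes tested the median was -0.10, and 19.3% exceeded 0.5. Without the 2 libraries the median was 0.60 and 50 members exceeded 0.5, against 8.10% of genes, while 6 members were below 0. Among the leading members, Mrpl3 was at -0.09, Mrpl1 at 0.05, Mrps9 at 0.15 and Mrpl32 at 0.52. These values are given as a description: the points share libraries, depth and composition.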

How the data were processed

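Retinal poly(A) RNA was measured in 47 libraries. The authors deposited a table of RPKM values per gene and library. It holds 1 column without a matching sample, which was left aside. Per the submitters' processing notes, FastQC 0.23.4, HISAT2 2.2.1, Subread 2.0.6 and build GRCm39 were named, without roles. No source used here gives the annotation or filters of the counting. Per the labels, the authors tested with edgeR, MetaCycle and CircaCompare. Symbols, biotypes and exon lengths came from GENCODE M21 of an earlier build, which matched 51884 identifiers, so gene coordinates are not given. Groups follow the labels' age and time.

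The 15321 genes that reached 0.5 RPKM in 12 or more libraries entered limma 3.58.1 (R 4.3.3) on a log2 scale after 0.5 was added to each RPKM. The moderated tests used an intensity trend, and p-values were adjusted by Benjamini-Hochberg over these genes and called under 0.05. Fold changes on this scale understate those of low genes. Age was tested with time as a factor, single times from 12 group means, rhythm by 24 h cosine and sine terms in each age, and differences in rhythm by their interaction with age. The scripts were tested on simulated data. RPKM of low genes come in equal steps, each the value of a single read, and reads within 0.01 of a whole number were recovered for 37323 of 37323 genes above 0; for genes whose length was itself chosen so, this is partly built in.

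Members and lists were chosen with earlier results of these data known. Members named are the up to 8 called with the smallest p per test (3 if fewer than 3 were called), the 3 highest and 3 lowest levels, the 4 largest amplitudes and 9 with special roles; pathway lists give up to 4 called genes. Values of members called without the 2 libraries, of Mrps14, Mrps2, Mrps15, Mrps11, Mrpl13, Mrpl34 and Mrpl51, and of Mrm2 were named after they were seen. Alternatives changed pseudocount, filter, scaling, replicate block, library weights, covariates, rhythm test, fold minimum and voom on recovered reads, and left out each library; leaving out both libraries that stand apart, with and without scaling, is among them.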

Additional observations from a re-analysis of the deposited data

Results flagged for a closer look

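Groups of 4 were searched for 1 library far from the other 3, by the gap to the nearest divided by the range, against Dixon's limit at 95%, over 66 groups of 6 measures; chance gives about 1 in 20. The members' mean log2 level was 3.85 in young ZT10 replicate 4, against 3.26 to 3.27 in the others, and 3.43 in aged ZT14 replicate 3, against 3.32 to 3.34. Young ZT10 replicate 4 also held Mrps9 at 4.27 RPKM (others 3.32 to 3.46) and Mrps31 at 2.24 RPKM (others 5.55 to 6.06). Mrpl1 was at 4.41 RPKM in aged ZT6 replicate 3 (others 3.06 to 3.27) and at 1.94 RPKM in young ZT18 replicate 2 (others 2.16 to 2.18). Mrpl32 was at 4.66 RPKM in aged ZT14 replicate 1 (others 4.14 to 4.22). Mrpl3 was at 5.67 RPKM in young ZT2 replicate 4 (others 4.77 to 4.91) and at 4.89 RPKM in young ZT22 replicate 1 (others 4.20 to 4.30). Of the 9 values, 4 come from the 2 libraries that stand apart. The members' mean level in aged ZT6 replicate 3 (2.61, others 3.25 to 3.46) did not pass this limit. Aged ZT14 replicate 3 did pass it and was kept among the 45 libraries, so the choice of the 2 libraries does not follow this rule.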

How the results depend on the processing

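The number of members changed with age was 27 with library weights (26 higher, 1 lower), where 26.6% of all genes were called. It was 20 without both libraries that stand apart (16.5% of genes), 21 without them with median-ratio scaling (16.1%), 21 without them with quantile normalization (16.4%), and 0 with all 47 libraries and the fold over 1.5. The count over single times was 1 with median-ratio scaling, 1 with quantile normalization, 35 with weights and 1 without both libraries. Of the 35, 30 were at ZT18, where 20.6% of genes passed. The interaction count was 6 (10.4% of genes) and that of different rhythms 3 (3.47% of genes), both with weights, which gave the 2 libraries weights of 0.03 and 0.045. In young, 4 members were rhythmic with median-ratio scaling (16.3% of genes), 4 with quantile normalization (16.9%), 43 with weights (42.7%), 9 with covariates (12.4%) and 10 with 6 times as a factor (13.7%). Without both libraries it was 14 with median-ratio scaling (27.6%) and 15 with quantile normalization (25.9%). In aged it was 30 with weights (54.2%), 24 without both libraries (27.3%), 2 with covariates (1.98%), 2 with 6 times as a factor (6.55%) and 10 without both with quantile normalization (19.3%). The cause of these shifts was not tested. Leaving out each library gave 1 to 5 for age, 0 to 10 for single times, 17 to 37 for young, 5 to 24 for aged, 0 for the interaction and different rhythms, and a median difference of -0.005 to 0.044. Leaving out aged ZT6 replicate 4 gave the 10, aged ZT6 replicate 2 gave 7 and young ZT10 replicate 4 gave 2. With 1 more library left out beside the 2, age gave 16 to 24. The replicate block gave 1, 26 and 6 for age, young and aged. Same-numbered libraries' deviations correlated with a median of 0.0297 over 253 pairs, 90 above 0.1. For different numbers the median was -0.00937 over 759 pairs, 202 above 0.1. These values do not settle whether the numbers pair the mice. With voom on recovered reads the counts were 1, 23 and 6, and 619 of all genes were called for age. Of 277 other comparisons of single members, 227 kept the call or its absence, 40 lost the call and 10 gained it. Direction was compared only for the age difference of Mrpl1, and it did not reverse. Depth limits the lowest members most, since the smallest count of a member in a library was 120 reads.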
